A study of Caenorhabditis elegans with 36 samples.

Results

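Nuclear transfer RNA (tRNA) genes of *Caenorhabditis elegans* were examined in small RNA libraries made from whole adults before and after immunoprecipitation (IP) of the Argonaute protein HRDE-1. A gene was included if the WBcel235 annotation gives it the biotype tRNA and places it outside the mitochondrial genome. This rule selected 612 of the 31106 features in the count tables. The 22 mitochondrial tRNA genes were left out and serve as a comparison, and all 612 genes had at least 1 count in at least 1 library.

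A tRNA carries an amino acid to the ribosome and reads a codon through its anticodon. Its gene is transcribed by RNA polymerase III from promoter elements inside the gene, and the transcript is trimmed at both ends, spliced if it holds an intron, modified at many bases and charged by an aminoacyl-tRNA synthetase. Mature tRNAs are cut by nucleases, and the pieces are of a size that small RNA cloning recovers. HRDE-1 is a nuclear Argonaute of the germline. It binds 22G-RNAs, short antisense RNAs that RNA-dependent RNA polymerases copy from target transcripts, and acts in inherited silencing. Pieces of a tRNA are cut from a transcript and not copied by such a polymerase. The counts used here do not separate such pieces from antisense RNA.

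Each of the 36 libraries came from whole 1-day-old adults of 1 of 6 genotypes, grown at 20 °C for 68 h, with an input and an IP library from each of 3 replicates. All strains, the control included, carried the *hrde-1(tor125[GFP::3xFLAG::hrde-1])* insertion, and the IP was made with an anti-FLAG antibody. The control is called wild-type (strain JMC231). The other strains were *hrde-2* (*hrde-2/enri-3(qe20)*), *simr-1* (*simr-1(cmp36)*), *mut-2* (*mut-2(ne298)*), *mut-2; hrde-2* (*ne298* and *qe20*) and *simr-1 mut-2* (*cmp36* and *mut-2(cmp306)*). HRDE-2 and SIMR-1 are proteins of germ granules, and MUT-2 is a nucleotidyltransferase that adds the 3′ tails from which 22G-RNAs are copied. The *mut-2* allele of *simr-1 mut-2* differs from that of *mut-2*, so a comparison of these strains is also one between alleles. RNAs of 18 to 30 nt were cloned after a polyphosphatase treatment, so the values describe short RNAs that map to tRNA genes and not whole tRNAs. In whole animals, fewer cells of a type and less RNA per cell cannot be told apart.

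The libraries held 4275760 to 17448124 counts on genes, with a median of 10220030. Levels are given as counts per 1000000 counts on genes (RPM), a share of the library, and 1 count was worth 0.0573 to 0.234 RPM. The wild-type input of replicate 2 stood apart. Its tRNA genes summed to 5094 RPM against 24385 and 17547 RPM in replicates 1 and 3, whereas its mitochondrial tRNA genes summed to 1071 RPM against 1319 and 1470 RPM and its nuclear rRNA genes to 93203 RPM against 73492 and 153245 RPM. The headers inside both wild-type replicate 2 tables name replicate 1, and the label was kept. The library names of 22 of the 36 libraries end in a second suffix whose meaning is not given in the sources used here. It marks every library of the 3 strains with a *mut-2* mutation, both fractions of *hrde-2* replicate 1 and, among the wild-type libraries, both fractions of replicate 2, so beyond that replicate the suffix and a *mut-2* mutation cannot be told apart. Results that use wild-type are therefore also given without replicate 2, an alternative that removes the library with the lowest tRNA sum.

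The tRNA genes were short and spread over the genome, with a concentration on the X chromosome. There were 276 genes on X, which is 45.1% of the set, and 57 to 78 on each autosome. Of the 612 genes, 285 were 72 nt long, 173 were 73 nt and 60 were 82 nt, and 29 had an intron and therefore 2 exons. The plus strand held 298 genes and the minus strand 314. A further 148 genes overlapped no other gene and 112 lay in an intron of a protein-coding gene. The exons of the remaining 352 genes overlapped an exon of another feature. In 347 cases this was a non-coding RNA gene on the opposite strand, and in the other 5 it was such a gene together with a protein-coding gene on the same strand. The RefSeq annotation of the same build lists 598 of the genes as tRNA, and the other 14 found no match there.

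This overlap set the values of most of the genes. The tables count reads of either strand and divide a read equally among all features that it overlaps to the same extent. In the 260 genes without an overlapping feature, 99.98% of the values above 0 were whole numbers, whereas in the 347 genes with 1 such feature 50.1% ended in 0.5. In the 5 genes with 2 such features, 73.9% of the values held another fraction. A single feature covered all exon bases of 325 genes. Among the 60 of these with at least 2000 counts over the 36 libraries, the covering feature held a median of 1.02 times the count of the tRNA gene, and in 51 genes both counts were within 10% of each other. Such a gene and its partner thus share the reads that lie on the gene, and sense and antisense reads cannot be told apart. Multiplying each gene by 1 plus the number of features that cover it in full raised the wild-type input sums from 24385, 5094 and 17547 RPM to 36238, 7673 and 25317 RPM. Deposited values are used below unless restored values are named.

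**Figure D1:**
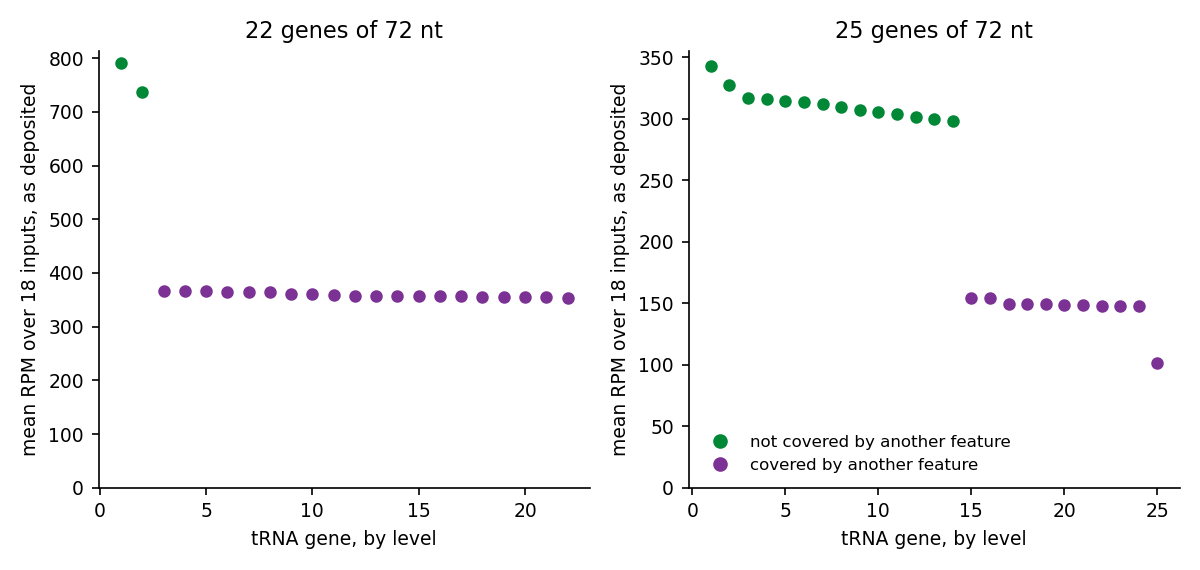
Mean RPM over the 18 inputs, as deposited, of each gene in 2 sets of 72-nt tRNA genes with like restored input levels, ordered by level. Green points are genes that no other feature covers in full and purple points are genes that are covered. In the set of 22 genes the uncovered genes M01E10.t2 and Y22D7AL.t4 stand at 792 and 738 RPM and the 20 covered ones at 354 to 366 RPM.

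Small RNAs from tRNA genes were a minor part of total small RNA, and their share varied between libraries. The input sums were 24385, 5094 and 17547 RPM in wild-type, 11577, 14906 and 12219 RPM in *hrde-2* and 15924, 21275 and 19541 RPM in *simr-1*. They were 24172, 32646 and 30692 RPM in *mut-2*, 36415, 22687 and 19957 RPM in *simr-1 mut-2* and 34581, 36547 and 33730 RPM in *mut-2; hrde-2*. The share of all counts thus ranged from 0.509% in the wild-type input of replicate 2 to 3.65% in 1 *mut-2; hrde-2* input. The *mut-2; hrde-2* inputs were above all inputs of wild-type and of *mut-2*. The differences of log2 means were 1.43 ± 1.19 against wild-type and 0.27 ± 0.24 against *mut-2*. The spread is the SD of the difference, the root of the sum of both squared group SDs. Each gave p = 0.1 in a two-sided exact permutation test (n = 3 each, adjusted p = 0.35 over 7 comparisons), and 0.1 is the smallest p that 3 against 3 can give. The other 5 comparisons of inputs overlapped (p = 0.2 to 1, two-sided exact permutation test), with differences of -0.02 (*hrde-2*), 0.53 (*simr-1*), 1.16 (*mut-2*) and 0.97 (*simr-1 mut-2*) against wild-type and -0.18 for *simr-1 mut-2* against *mut-2*. Without the wild-type input of replicate 2 the difference of *mut-2; hrde-2* from wild-type was 0.76, that of *mut-2* was 0.48, that of *simr-1 mut-2* was 0.30, that of *hrde-2* was -0.69 and that of *simr-1* was -0.14.

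**Figure D2:**
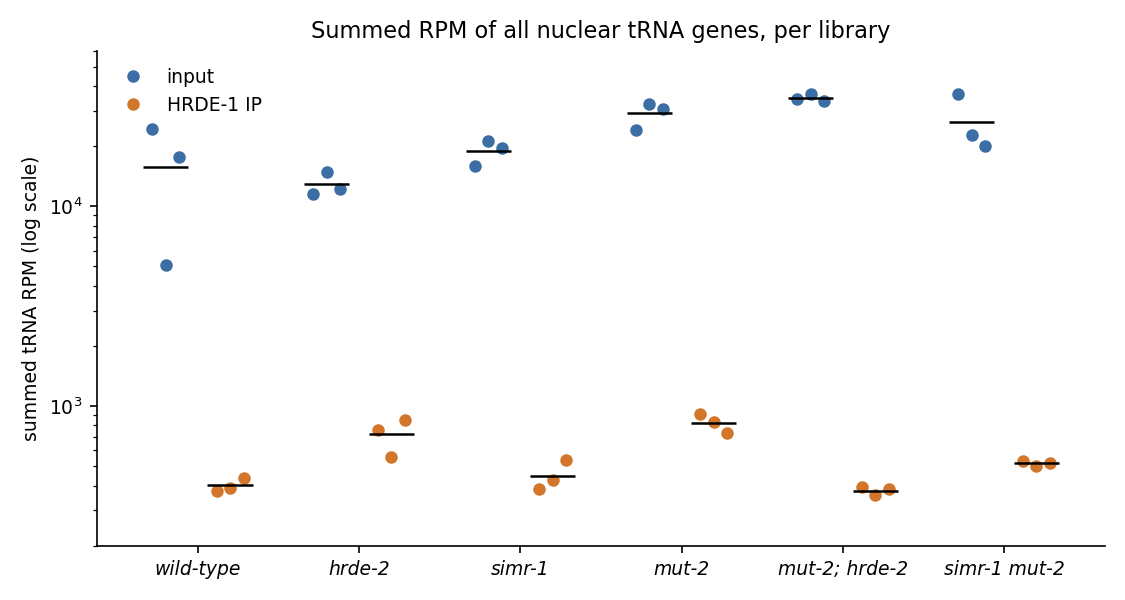
Summed RPM of the 612 nuclear tRNA genes in each input (blue) and HRDE-1 IP (orange) library, on a log scale, with black lines at the means of 3 replicates. The input points lie between 5094 and 36547 RPM and the IP points between 357 and 910 RPM, and the lowest input is the wild-type library of replicate 2.

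A minority of the genes carried most of these reads. Between 140 and 231 of the 612 genes reached a mean of 10 RPM in the inputs of a genotype, 41 to 68 reached 100 RPM, and 27 to 34 genes together held the larger part of the sum. The median gene stood at 2.82 RPM in *hrde-2* to 6.05 RPM in *simr-1 mut-2*. Genes of 72 nt, 46.6% of the set, held 74.3% to 85.1% of the sum in the 18 inputs. Their share of the IP sums was 48.0% to 64.8%. The 29 genes with an intron, 4.74% of the set, held 0.466% to 2.17% of the input sums and 3.67% to 9.17% of the IP sums. Genes on X held 44.6% to 54.1% of the input sums, against their 45.1% of the genes. These shares are descriptions, and copies of a gene share reads.

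The gene with the highest mean over all libraries was M01E10.t2, a 72-nt gene on the minus strand of chromosome III (2032897 to 2032968) that overlaps no other gene. Its input levels were 790, 178 and 529.6 RPM in wild-type, 451, 382 and 424 RPM in *hrde-2* and 532, 599 and 649 RPM in *simr-1*. They were 839, 1188 and 952 RPM in *mut-2*, 1417, 766 and 799 RPM in *simr-1 mut-2* and 1244, 1284 and 1226 RPM in *mut-2; hrde-2*. The gene was high in every input, and the *mut-2; hrde-2* libraries did not overlap those of wild-type, but it was called in none of the 7 comparisons of inputs. Next came Y22D7AL.t4, also on the minus strand of chromosome III (1604702 to 1604773), with a mean of 738 RPM over the 18 inputs. Y53C10A.t3, F52E10.t4 and F52E10.t5, each covered by a feature on the opposite strand, followed at 366 RPM in each case.

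These 5 genes belonged to a set whose restored levels were nearly equal in every genotype. Such sets were formed among the 233 genes whose restored input level, averaged over the 6 genotypes, was at least 10 RPM. Genes were joined if their log2 levels differed by at most 0.35 in each of the 6 genotypes, with a pseudocount of 0.5 RPM. Together these genes held 95.6% of the restored input sum. They fell into 66 sets, of which 33 had at least 2 genes and held 200 genes. In 26 of the 33, all genes had the same length, a property that the grouping did not use. The sets were formed after the values had been seen and from the input levels, so their likeness is the rule and not a result. The aligner placed each read once, so copies with the same sequence receive reads at random in like numbers. Whether the genes of a set have the same sequence was not tested, because no genome sequence was used here.

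The set with the largest share comprised 22 genes of 72 nt, 13 of them on X and the others on I, II and III, and held 45.8% of the restored input sum. Its restored input level per gene was 728, 154 and 424 RPM in wild-type, 399.6, 359 and 401 RPM in *hrde-2* and 464, 529 and 575 RPM in *simr-1*. It was 786, 1107 and 879.8 RPM in *mut-2*, 1358, 699.6 and 727 RPM in *simr-1 mut-2* and 1136, 1177 and 1106 RPM in *mut-2; hrde-2*. The genes of this set stayed close together, with a median coefficient of variation among genes of 2.68% over the libraries. Counting error at the mean deposited count would give 1.95%. Most of these genes hold divided reads, so the error of their undivided reads is smaller than that. None of the 22 was called in any of the 7 comparisons of inputs.

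The largest set by number comprised 25 genes of 72 nt, 12 on X, 8 on IV, 4 on V and 1 on I, with 22.1% of the restored input sum. Its genes stood at 139, 63.5 and 163 RPM in wild-type, 145, 206 and 120 RPM in *hrde-2* and 185, 254 and 174 RPM in *simr-1* inputs. They stood at 442, 571 and 463 RPM in *mut-2*, 352, 275 and 247 RPM in *simr-1 mut-2* and 569, 659 and 497 RPM in *mut-2; hrde-2*. Both strains with the *ne298* allele were above every input of the other 4 strains. As deposited, the 14 genes without full cover had means over the inputs of 299 to 343 RPM, the 10 covered by 1 feature 148 to 154 RPM, and Y54G2A.t1, covered by 2 features, 102 RPM.

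Other sets had other patterns. The 13 genes of 70 or 71 nt with 8.65% of the restored sum had input levels of 345, 42.8 and 191 RPM in wild-type and 182, 248 and 228 RPM in *mut-2*, and none was called in any comparison of inputs. All 13 were called lower in *simr-1 mut-2* than in wild-type once the wild-type input of replicate 2 was left out, with a median log2 difference of -1.23, and none in the other 4 mutants. The 9 genes of 72 nt with 4.64% of the sum varied widely between replicates. Their wild-type inputs were at 622, 16.6 and 349 RPM, and their *simr-1 mut-2* inputs at 360.1, 100.1 and 39.0 RPM. The *simr-1* inputs were at 259.8, 282 and 373 RPM, and those of the other 3 strains between 35.2 and 130.3 RPM. The wild-type inputs thus held both the highest and the lowest level of this set.

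**Figure D3:**
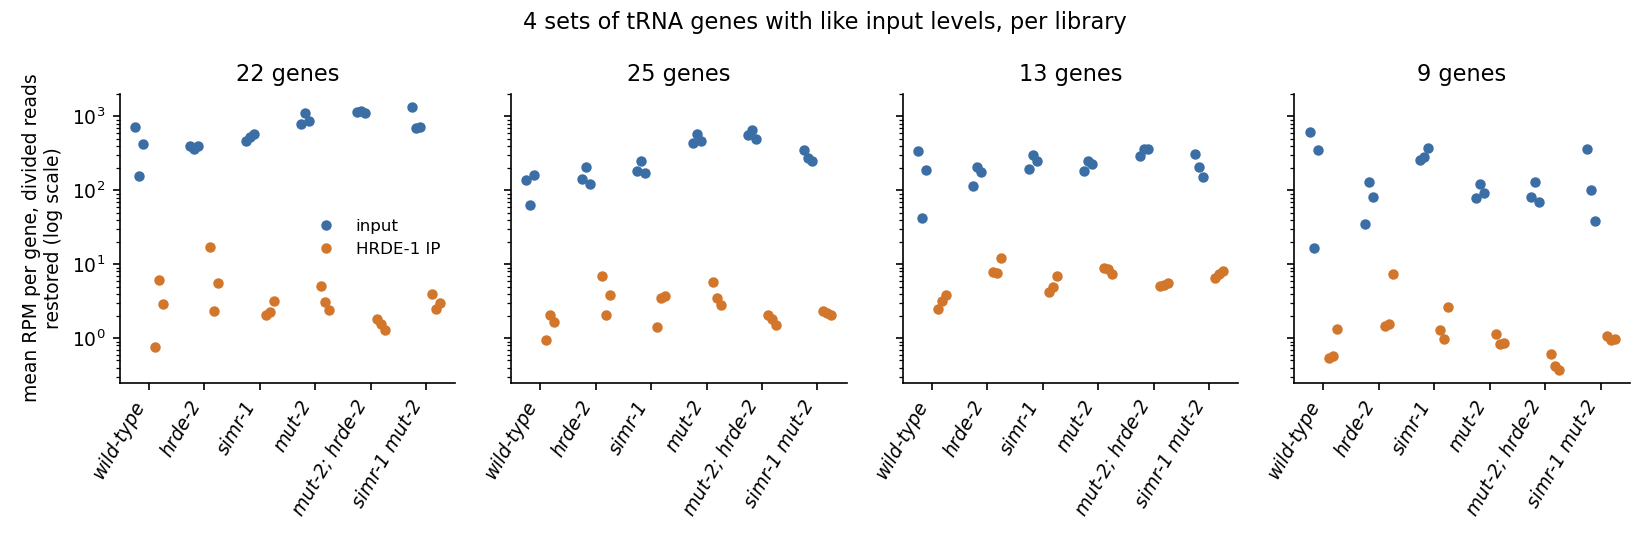
Mean restored RPM per gene of 4 sets of tRNA genes in each input (blue) and HRDE-1 IP (orange) library, on a log scale. In the 22-gene, 25-gene, 13-gene and 9-gene sets alike every IP point lies below the input points of its genotype, and the wild-type input of replicate 2 is the lowest wild-type input, down to 16.6 RPM in the 9-gene set.

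The IP against input comparison asks which small RNAs were recovered with HRDE-1. The tRNA genes were depleted in the IP of every genotype. The IP sums were 376, 389.9 and 438 RPM in wild-type, 761, 553 and 849 RPM in *hrde-2* and 383, 426 and 534 RPM in *simr-1*. They were 910.3, 828 and 732 RPM in *mut-2*, 530.4, 501 and 521 RPM in *simr-1 mut-2* and 392, 357 and 383 RPM in *mut-2; hrde-2*. No IP library reached 5094 RPM, the lowest input. The mean input was 39.0-fold the mean IP in wild-type, 17.9-fold in *hrde-2*, 42.2-fold in *simr-1*, 35.4-fold in *mut-2*, 50.9-fold in *simr-1 mut-2* and 92.7-fold in *mut-2; hrde-2*. As log2 IP to input per lysate the means were -5.02 ± 1.19 (SD, n = 3), -4.18 ± 0.50, -5.40 ± 0.23, -5.14 ± 0.36, -5.62 ± 0.43 and -6.53 ± 0.12 in the same order. Each genotype gave p = 0.1 (adjusted p = 0.1 over 6) in the two-sided exact permutation test, again the smallest value it can give, and the IP spread was narrow beside the input spread in wild-type.

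Most tRNA genes tested were depleted one by one as well. Features that reached 10 counts in 3 or more libraries of a comparison were tested with edgeR's quasi-likelihood test with Benjamini-Hochberg adjustment over all features, and called at an adjusted p of at most 0.05 and at least 2-fold. In wild-type 340 of 363 tRNA genes tested were lower in the IP, where 25.3% of all features were called lower. In *hrde-2* 411 of 432 were lower, beside 41.9% of all features, and in *simr-1* 447 of 456, beside 21.6%. The numbers were 429 of 487 (22.3% of all features) in *mut-2*, 459 of 471 (22.5%) in *simr-1 mut-2* and 474 of 479 (28.9%) in *mut-2; hrde-2*. The median log2 differences of the tRNA genes were -4.03, -3.32, -4.44, -3.30, -4.31 and -4.51 in the 6 genotypes in this order, beside 0.15, -0.34, -0.01, -0.01, 0.02 and -0.06 over all features tested. These tests passed genes largely through their input level, so neither the counts nor the medians are those of all 612 genes. Without the filter 81.3%, 81.6%, 92.9%, 82.2%, 92.9% and 94.6% of the tRNA genes tested were lower, in the same order. The shares of all features were then 15.5%, 27.2%, 16.9%, 18.8%, 18.3% and 21.8%. Of the 349 genes tested in all 6 genotypes, 318 were lower in each, and 81 genes were tested in none. M01E10.t2 had IP levels of 1.17, 7.34 and 5.25 RPM in wild-type and 2.59, 1.16 and 1.56 RPM in *mut-2; hrde-2*. Its log2 differences were -6.44 ± 0.82 (SE, adjusted p = 0.000297 in edgeR) and -9.51 ± 0.17.

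**Figure D4:**
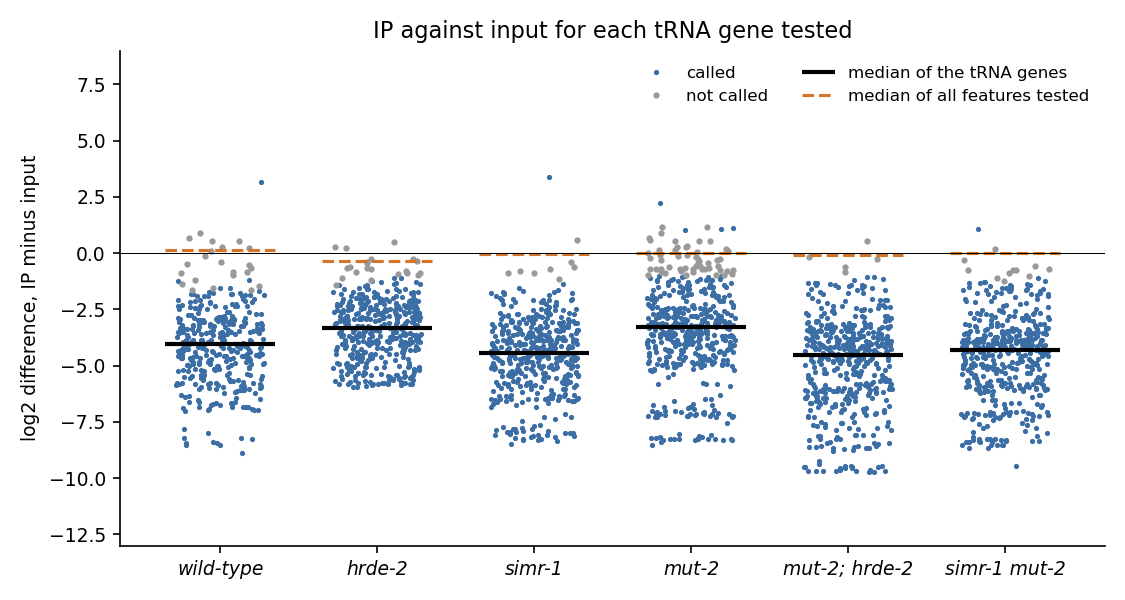
Log2 difference of IP minus input for each tRNA gene tested in each genotype (blue called, grey not called), with black lines at the median of the tRNA genes and dashed orange lines at the median of all features tested. The tRNA medians run from -4.51 to -3.30 and the medians of all features from -0.34 to 0.15, and a few points lie above 0.

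Other structural RNAs were depleted as well, to differing degrees. In wild-type the summed log2 IP to input per lysate was -6.41 ± 1.24 (SD, n = 3) for the 22 mitochondrial tRNA genes, -5.70 ± 0.68 for the 2 mitochondrial rRNA genes and -3.69 ± 0.24 for the 20 nuclear rRNA genes, beside -5.02 for nuclear tRNA. The 129 small nuclear RNA genes of the spliceosome stood at -1.92 and the 346 small nucleolar RNA genes, guides of RNA modification, at -1.50, whereas protein-coding genes stood at 0.29. In the *hrde-2* double mutant the small nuclear RNA genes were at -4.16 and the small nucleolar RNA genes at -3.07, beside -6.53 for nuclear tRNA and -6.85 for mitochondrial tRNA. In *hrde-2* nuclear rRNA was at -1.63, nuclear tRNA at -4.18 and mitochondrial tRNA at -4.51. Mitochondrial tRNA was thus depleted more than nuclear tRNA in each genotype by its mean, and nuclear rRNA less. The part of RNA breakdown in these levels was not tested.

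Of all tRNA genes, 5 were higher in the IP in at least 1 genotype, and none in *hrde-2* or *mut-2; hrde-2*, where 28.5% and 2.96% of all features were. B0513.t1, 72 nt on the plus strand of chromosome IV (13870265 to 13870336) in an intron of *prdh-1*, was the sole such gene in wild-type (28.9% of all features were called higher) and in *simr-1* (8.42%). Its wild-type levels were 2.99, 1.58 and 1.503 RPM in the input and 20.8, 6.84 and 16.7 RPM in the IP, a log2 difference of 3.18 ± 0.46 (SE, adjusted p = 0.000529 in edgeR). In *simr-1* the input was at 0.388, 0.742 and 0.125 RPM and the IP at 4.95, 6.02 and 6.34 RPM, a log2 difference of 3.37 ± 0.37 (adjusted p = 4.64e-05 in edgeR). No IP value overlapped an input value in either genotype. In *simr-1* every input of B0513.t1 was below the count filter, so the gene was tested there through its IP libraries alone. With any *simr-1* replicate left out, too few IP libraries remained for B0513.t1 to pass the filter. No tRNA gene was called higher in those fits, which therefore cannot show whether the *simr-1* call holds.

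In *hrde-2* the pattern of B0513.t1 was absent. Its input was at 1.78, 3.07 and 2.28 RPM and its IP at 0.996, 2.89 and 2.19 RPM, a log2 difference of -0.42 ± 0.46 (SE, adjusted p = 0.41 in edgeR). The difference in enrichment from wild-type was itself called, at -3.26 ± 0.69 (SE, adjusted p = 0.00069 in edgeR), beside 36.1% of all features lower in that comparison, and was -3.50 without wild-type replicate 2. In the 3 strains with a *mut-2* mutation no input exceeded 0.985 RPM and no IP 0.777 RPM. The B0513.t1 input was lower than in wild-type with log2 differences of -2.16 in *simr-1* and -2.64 in *mut-2*. The host gene *prdh-1* did not share the pattern. Its wild-type mean was 1.15 RPM in the input and 0.418 RPM in the IP, and 5.67 and 4.22 RPM were found in *simr-1 mut-2*.

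**Figure D5:**
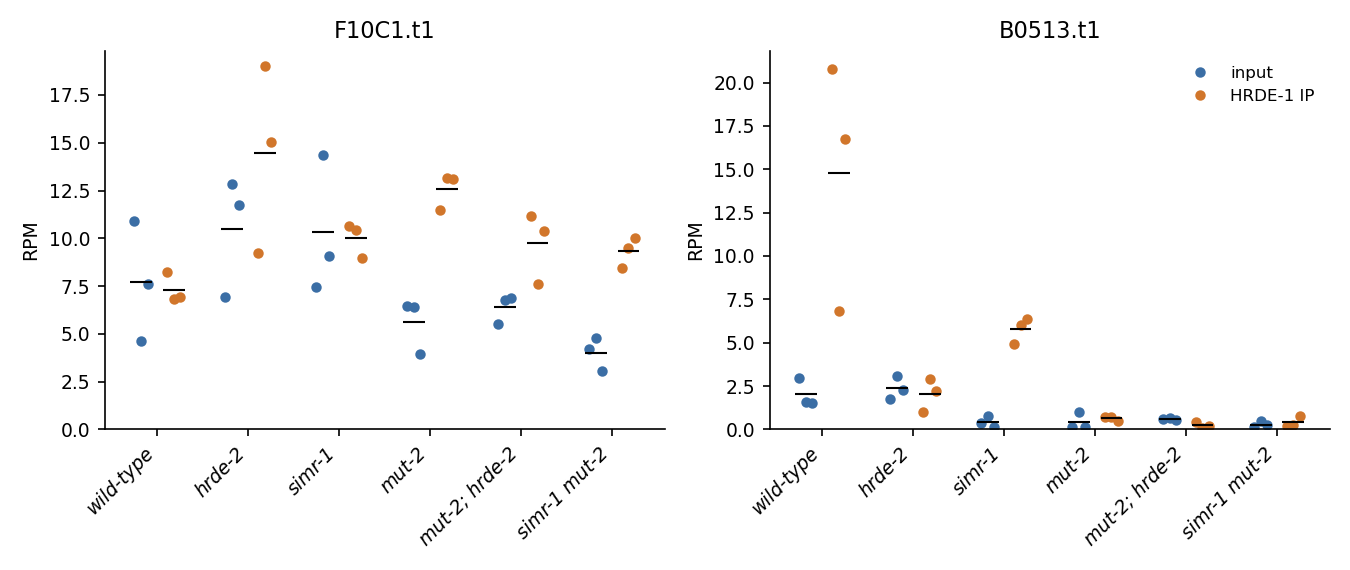
RPM of F10C1.t1 (left) and B0513.t1 (right) in each input (blue) and HRDE-1 IP (orange) library, with black lines at the means of 3 replicates. For B0513.t1 the wild-type IP points lie at 6.84 to 20.8 RPM and the *simr-1* IP points at 4.95 to 6.34 RPM above their inputs, and for F10C1.t1 the *mut-2* IP points lie at 11.5 to 13.2 RPM above inputs of 3.93 to 6.48 RPM.

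F10C1.t1, 71 nt on the minus strand of chromosome II (5782212 to 5782282), was called in neither direction in 4 genotypes, with log2 differences from -0.38 in *simr-1* to 0.55 in *mut-2; hrde-2*. It was called higher in the IP of *mut-2*, with inputs of 6.48, 6.40 and 3.93 RPM and IPs of 11.5, 13.2 and 13.1 RPM, a log2 difference of 1.03 ± 0.19 (SE, adjusted p = 0.000723 in edgeR). In *simr-1 mut-2* its inputs of 4.19, 4.80 and 3.04 RPM and IPs of 8.44, 9.49 and 10.0 RPM gave 1.07 ± 0.27 (adjusted p = 0.0109 in edgeR). Of all features, 3.75% were called higher in *simr-1 mut-2* and 13.4% in *mut-2*. No tRNA gene was called higher in *mut-2* without replicate 3, or in *simr-1 mut-2* without replicate 2 or 3. Both calls of F10C1.t1 were thus lost in these fits. The gene is covered on the opposite strand by F10C1.16, an 80-nt non-coding RNA gene with more counts than the tRNA gene. In wild-type, F10C1.16 was at 24.04, 14.2 and 20.8 RPM before the IP and at 63.2, 25.7 and 49.6 RPM after it, so reads that reach past the tRNA gene belong to the partner and the values of F10C1.t1 include part of its reads.

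The other 3 such genes were called in *mut-2* alone and had low counts. F28F8.t1, 82 nt on the plus strand of chromosome V (15550612 to 15550693) and without an overlapping gene, had *mut-2* inputs of 1.15, 0.656 and 0.614 RPM and IPs of 4.42, 3.34 and 4.80 RPM, a log2 difference of 2.24 ± 0.33 (SE, adjusted p = 0.00013 in edgeR). In *mut-2; hrde-2* the same gene had inputs of 0.868, 0.945 and 1.10 RPM and IPs of 1.16, 0.644 and 0.677 RPM. K02A4.t2, on the minus strand of X (12890285 to 12890356), had a log2 difference of 1.09 in *mut-2*, with inputs of 1.97, 2.95 and 1.35 RPM and IPs of 4.31, 5.95 and 4.35 RPM, and was lower in the IP of *simr-1*, at -2.08. F49E7.t1, on the plus strand of X (1089400 to 1089474), had 1.13, with *mut-2* inputs of 0.902, 0.574 and 0.553 RPM and IPs of 1.27, 1.59 and 2.18 RPM. Every *mut-2* input of F28F8.t1 and of F49E7.t1 was below the count filter, so both genes were tested through their IP libraries alone. With any *mut-2* replicate left out neither gene could pass the filter, so those fits cannot show whether their calls hold.

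The comparison of inputs asks whether the mutations changed the total pool of tRNA-derived small RNA. In *hrde-2* and *simr-1* it found almost no called change. None of 482 tested tRNA genes was higher in *hrde-2* than in wild-type and 1 was lower, while 4.06% and 10% of all features were. In *simr-1* none of 481 was higher and 2 were lower (1.19% and 13.2% of all features). An unadjusted p under 0.05 was reached by 8 genes for *hrde-2* and 4 for *simr-1* in edgeR and by 13 and 29 in DESeq2, in which the called numbers were the same. Without the wild-type input of replicate 2, 53 of 481 genes were lower in *hrde-2* (11%, beside 10% of all features) and 18 of 480 in *simr-1* (3.75%, beside 13.4%), and none was higher.

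The gene called lower in both strains was ZK678.t2, 71 nt on the plus strand of X (15748031 to 15748101) in an intron of *srxa-9*. Its wild-type levels were 6.80, 3.27 and 3.46 RPM in the input and 6.34, 3.71 and 5.51 RPM in the IP. Every other library of both fractions held at most 1.55 RPM. Its log2 difference of inputs was -2.02 ± 0.42 (SE, adjusted p = 0.011 in edgeR) for *hrde-2* and -1.72 ± 0.40 (adjusted p = 0.021) for *simr-1*, and -2.25 and -1.97 without the wild-type input of replicate 2. Other omissions lost these calls. No tRNA gene was called lower in *hrde-2* without *hrde-2* replicate 3. None was called lower in *simr-1* without wild-type replicate 1, *simr-1* replicate 1 or *simr-1* replicate 3. ZK678.t2 and B0513.t1 were the genes called lower in *simr-1* inputs, and both had as much or more signal in the wild-type IP as in the input. B0513.t1 passed the filter there through its wild-type inputs alone.

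In the strains with a *mut-2* mutation more tRNA genes differed from wild-type, and the direction depended on 1 library. In *mut-2* 96 of 490 tested genes were higher and 5 lower (11.1% and 33.1% of all features). In *simr-1 mut-2* 83 of 503 were higher and 8 lower (11.8% and 35.3%), and in *mut-2; hrde-2* 67 of 508 were higher and 17 lower (10.8% and 36.9%). Without the wild-type input of replicate 2 the numbers higher and lower became 50 and 150, 20 and 144, and 36 and 143 in the same order. Of the genes tested, 30.8%, 28.7% and 28.3% were then lower, near the 27.8%, 26.5% and 28.7% of all features. Without the wild-type input of replicate 1 the numbers were 45 and 0, 18 and 3, and 62 and 3. Higher were 9.7%, 3.85% and 12.6% of the tRNA genes tested, beside 5.7%, 8.07% and 8.53% of all features. Without replicate 2 no wild-type input carries the second suffix, so in that omission suffix and a *mut-2* mutation cannot be told apart. With a suffix term 264, 251 and 336 genes were higher and 2 lower in each strain. Higher were thus 53.9%, 49.9% and 66.1%, beside 10%, 10.8% and 12.1% of all features, of which 32.5%, 33.6% and 35.2% were lower. Library size in place of TMM factors moved the median of all features by more than 0.1 (log2). The numbers were then 156 and 3, 235 and 4, and 222 and 3. Of the tRNA genes tested, 31.8%, 46.7% and 43.7% were higher, beside 24.7%, 39.6% and 36.8% of all features. With all libraries and TMM factors the median log2 difference of the tRNA genes tested was 0.04, 0.27 and 0.12, beside -0.01, -0.13 and -0.22 over all features. It turned to -0.56, -0.38 and -0.36 without the wild-type input of replicate 2 (all features -0.03, -0.03 and -0.04) and was 0.37, 0.98 and 0.84 with library size alone (all features 0.32, 0.58 and 0.49).

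The genes called higher in the 2 strains with the *ne298* allele included the whole 25-gene set. Its genes had log2 differences from wild-type of 1.59 to 1.75 in *mut-2* and of 1.43 to 1.60 in *mut-2; hrde-2*, and all 25 were called in both. Without the wild-type input of replicate 2 the ranges were 1.02 to 1.18, with 25 called, and 0.95 to 1.12, with 17 called. F22F1.t5, on the plus strand of X (8155752 to 8155823) and without an overlapping gene, had the highest level of the called genes. Its inputs were at 161, 77.4 and 191 RPM in wild-type, 624, 728 and 572 RPM in *mut-2; hrde-2* and 489, 627 and 519.7 RPM in *mut-2*, with a log2 difference of 1.59 ± 0.31 (SE, adjusted p = 0.00137 in edgeR) for *mut-2*. Y54G2A.t4 on IV and F22F1.t1 on X, of the same set, followed at 1.75 and 1.64. In *simr-1 mut-2* none of the 25 was called against wild-type, and 23 were called lower than in *mut-2*, with log2 differences of -1.08 to -0.98. No tRNA gene was called lower in that comparison when the *mut-2* input of replicate 2 or the *simr-1 mut-2* input of replicate 2 or 3 was left out. The values of these 25 genes moved together and are not independent.

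The genes that were lower included members of the 9-gene set, whose wild-type inputs had the widest spread. E01H11.t1, on the minus strand of X (9373150 to 9373221) in an intron of *pkc-2*, had wild-type inputs of 676, 19.3 and 373 RPM. Its inputs were 97.1, 138 and 79.7 RPM in *mut-2; hrde-2*, between the wild-type values, and the log2 difference was -2.50 ± 0.93 (SE, adjusted p = 0.037 in edgeR). All 9 genes of the set were called lower in *mut-2; hrde-2* against wild-type, and 1, F38E9.t1, in *mut-2*. The wild-type and mutant inputs overlapped in both comparisons. Without the wild-type input of replicate 2 all 9 were called lower in each mutant but *simr-1*, where none was, and *simr-1 mut-2*, where 7 were. Of the other named genes, C34E11.t1 and ZK617.t1 had -1.72 and -1.81 in *mut-2*, and F14B6.t2 of the 9-gene set had -2.56 in *mut-2; hrde-2*.

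In *simr-1 mut-2* the genes called higher with the highest levels were of 73 nt. F49E2.t1, on the minus strand of X (9561088 to 9561160), had inputs of 27.8, 11.4 and 29.9 RPM in wild-type and 122, 128 and 71.8 RPM in *simr-1 mut-2*, a log2 difference of 1.51 ± 0.38 (SE, adjusted p = 0.00622 in edgeR), and 0.89 without the wild-type input of replicate 2. Y73F8A.t1 on IV and T28D6.t1 on III had 1.36 and 1.295, and 0.67 and 0.63 without that input. None of these 3 genes was called without it. F10C1.t1 fell by 1.64 on the log2 scale and E03E2.t2, in an intron of *cat-1*, by 1.67. *mut-2* inputs of F49E2.t1 stood at 63.8, 85.3 and 88.0 RPM and those of *mut-2; hrde-2* at 145, 97.9 and 148 RPM, all above wild-type.

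Against *mut-2*, the double mutants showed few changed inputs. In *mut-2; hrde-2* 1 of 506 tested genes was higher and 2 lower (0.343% and 6.21% of all features). T04D3.t4, on the minus strand of chromosome I in an intron of *T04D3.8*, had inputs of 2.79, 3.94 and 2.70 RPM in *mut-2* and 17.4, 9.14 and 13.9 RPM in *mut-2; hrde-2*, a log2 difference of 1.83 ± 0.29 (SE, adjusted p = 0.00368 in edgeR). Its IP levels went the other way, at 3.84, 4.56 and 3.22 RPM in *mut-2* and 1.75, 2.12 and 1.22 RPM in *mut-2; hrde-2*. B0285.t1, a gene with an intron on III, fell by 1.03. In *simr-1 mut-2* 20 of 496 were higher and 25 lower (3.57% and 6.98%), 23 of the lower genes being from the 25-gene set. The higher genes of highest level were T28D6.t2, C52G5.t1 and F22G12.t1, each of 73 nt, with 1.24, 1.37 and 1.12. T28D6.t2 had inputs of 19.02, 22.97 and 15.4 RPM in *mut-2* and 52.7, 65.9 and 47.0 RPM in *simr-1 mut-2*.

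The values of 1 gene were dominated by 1 library. C53C7.t3, 84 nt on the minus strand of X (13038960 to 13039043), had *mut-2* inputs of 15.8, 59.2 and 3103 RPM, and its level in replicate 3 was above that of any other tRNA gene in any library. Its wild-type inputs were 16.5, 16.9 and 123 RPM and its *mut-2; hrde-2* inputs 20.6, 12.1 and 24.3 RPM. The IP of the same *mut-2* replicate held 5.96 RPM, beside 2.97 and 2.57 RPM in the others. The covering feature C53C7.6 had nearly the same values. The log2 difference of *mut-2; hrde-2* from *mut-2* was -6.14 ± 1.69 (SE, adjusted p = 0.048 in edgeR), and against wild-type it was called lower in both double mutants, at -2.23 and -2.45.

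The IP sums differed more clearly between genotypes than the input sums, though at levels under 0.1% of the library. All IPs of *hrde-2*, of *mut-2* and of *simr-1 mut-2* were above all wild-type IPs, by log2 differences of 0.82 ± 0.34 (SD of the difference), 1.03 ± 0.20 and 0.37 ± 0.12. Those of both double mutants, *hrde-2* first, were below the *mut-2* IPs, by -1.12 ± 0.17 and -0.67 ± 0.16. Each of these 5 gave p = 0.1 in the two-sided exact permutation test, its smallest value with n = 3 (adjusted p = 0.14 over 7). *simr-1* and *mut-2; hrde-2* overlapped wild-type, at 0.15 (p = 0.6) and -0.09 (p = 0.5) in the same exact test. With TMM-scaled library sizes the difference of *simr-1 mut-2* from wild-type turned to -0.08 and that of *hrde-2* was 0.41.

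Differences in enrichment were tested as the interaction of fraction and genotype over 12 libraries. The comparisons of the double mutants with *mut-2* share the *mut-2* libraries. For *mut-2; hrde-2*, 280 of 524 tested tRNA genes were lower and none was higher (21.4% and 1.74% of all features). The median log2 difference of the tRNA genes was -1.29, beside -0.05 over all features. In *simr-1 mut-2* 123 of 515 were lower and none higher (10.7% and 0.114%), with a median of -1.10 beside -0.14. An unadjusted p under 0.05 was reached by 317 and 227 genes in edgeR, and DESeq2 called 264 and 112 lower and none higher (20.5% and 10.1% of all features lower). The number lower when 1 lysate was left out was 42 to 95 in *simr-1 mut-2* and 185 to 280 in *mut-2; hrde-2*. These were 8.25% to 18.9% and 35.7% to 54.8% of the tRNA genes tested, beside 6.9% to 8.96% and 18.1% to 20.1% of all features. M01E10.t2, with *mut-2* IPs of 9.72, 4.32 and 3.53 RPM and *mut-2; hrde-2* IPs of 2.59, 1.16 and 1.56 RPM, had -1.94 ± 0.40 (SE, adjusted p = 0.00121 in edgeR). All 22 genes of its set were called lower, with -1.94 to -1.05, as were 21 of the 25-gene set and 11 of the 13-gene set, beside 1 of the 9-gene set. The log2 IP to input ratio of the sums of *mut-2; hrde-2* differed from that of *mut-2* by -1.39 ± 0.38 (SD of the difference, p = 0.1, adjusted p = 0.35, exact permutation test), with no overlap. By the same ratio the fall was not particular to nuclear tRNA. Small nuclear RNA stood at -1.87 in *mut-2*, -4.16 in *mut-2; hrde-2* and -2.61 in *simr-1 mut-2*. Small nucleolar RNA stood at -2.26, -3.07 and -3.21 in this order. Mitochondrial tRNA stood at -6.41, -6.85 and -6.76, and mitochondrial rRNA at -5.95, -6.56 and -6.11. Nuclear rRNA went the other way, at -3.77, -3.10 and -3.04.

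Against wild-type, whose lysates varied most, the enrichment counts moved with the fit and the library. In *hrde-2* 61 of 490 genes were higher and 8 lower (33.7% and 36.1% of all features). With the lysate as a replicate block 152 were higher and 13 lower (35.6% and 38% of all features). In *mut-2* 74 of 519 were higher and 6 lower (28.4% and 9.64%), and 152 and 24 with the block (30.1% and 11.4%). In *simr-1* none of 486 was higher and 27 were lower (9.37% and 21.9%), and 1 and 75 with the block (9.53% and 27.5%). The *simr-1* median of -0.62 was close to that of all features, -0.63. DESeq2 called none higher and 11 lower there, and 51 genes had an unadjusted p under 0.05 in edgeR. Without wild-type replicate 2 the numbers were 160 and 8 in *hrde-2*, 173 and 15 in *mut-2* and 1 and 34 in *simr-1*, without wild-type replicate 1 they were 16 and 5, 10 and 70, and 0 and 43, and without replicate 3 they were 15 and 14, 28 and 7, and 0 and 27. Without replicate 2, 32.7%, 33.3% and 0.206% of the tRNA genes tested were thus higher, beside 35.1%, 28.9% and 9% of all features. Without replicate 1 the direction turned in *mut-2*, where 13.8% of the tRNA genes and 19.7% of all features were lower. Of all features, 33.4%, 8.18% and 8.42% were higher without replicate 1, and 32.3%, 25.8% and 9.93% without replicate 3. For the sums, the log2 IP to input ratio differed from wild-type by 0.84 (*hrde-2*), -0.39 (*simr-1*), -0.12 (*mut-2*) and -0.60 (*simr-1 mut-2*) (p = 0.4 to 0.9, exact permutation test), all with overlap, and by -1.52 without overlap in *mut-2; hrde-2* (p = 0.1). Without wild-type replicate 2 these differences were 1.495, 0.27, 0.53, 0.05 and -0.86 in the same order, so 3 of them changed sign.

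The protein-coding genes of the tRNA pathway were depleted less than the tRNA genes in wild-type by their median. The list held 36 genes, namely 21 cytosolic aminoacyl-tRNA synthetases, 5 genes of RNA polymerase III and its factors and 10 of tRNA processing and modification, and all 36 were tested in each comparison. In wild-type 19 were lower in the IP and none higher, with a median log2 difference of -1.02 (25.3% and 28.9% of all features). In *hrde-2* 34 were higher, among them 20 of the 21 synthetases, and 1 was lower (28.5% and 41.9%). *gars-1*, the glycyl-tRNA synthetase gene, had mean levels of 112 RPM in the wild-type input and 61.1 RPM in the IP, and of 83.7 and 379.7 RPM in *hrde-2*. Its enrichment in *hrde-2* exceeded that of wild-type by a log2 difference of 2.83 ± 0.23 (SE, adjusted p = 6.31e-08 in edgeR). In the same comparison 33 of the 36 were higher and 1 lower (33.7% and 36.1% of all features), while 21 were higher and 1 lower for *simr-1* (9.37% and 21.9%), and 31 and 0 for *mut-2* (28.4% and 9.64%).

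The gene that went the other way in *hrde-2* was *mafr-1*, the Maf1 repressor of RNA polymerase III. Its IP to input log2 difference was -1.80 ± 0.16 (SE, adjusted p = 1.19e-05 in edgeR) in *hrde-2* and 0.97 in wild-type, where it was not called. Mean *mafr-1* inputs fell from 255 RPM in wild-type to 42.6 RPM in *mut-2*, 52.0 RPM in *simr-1 mut-2* and 43.7 RPM in *mut-2; hrde-2*, with log2 differences of -2.92, -3.03 and -3.27, each called. It was called higher in the IP of *mut-2*, at 1.35, and was the sole gene of the list whose enrichment was called lower in the double mutants than in *mut-2*, at -1.22 and -1.43. In the inputs of the 3 strains with a *mut-2* mutation 2 genes of the list were higher and 1, 1 and 2 lower than in wild-type (10.8% to 11.8% and 33.1% to 36.9% of all features). The gene *fars-1*, for a subunit of the phenylalanyl-tRNA synthetase, was higher in each, at 1.05, 1.07 and 1.11. In *hrde-2* and *simr-1* inputs none of the 36 was called.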

How the data were processed

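Small RNAs of 18 to 30 nt from whole adults of 6 genotypes were sequenced before and after HRDE-1 IP, in 3 replicates. According to the study's methods and notes, reads were trimmed with cutadapt (3.4) and aligned with Bowtie2 (2.5.0), which places each read once, and the authors counted them over exons per gene with featureCounts (Subread 2.0.1), without strand and with fractional assignment to overlapping features. The deposited values are therefore expected counts, not normalised, and 10.4% of the nonzero values were fractional (29.4% for the tRNA genes). They were used unrounded for RPM and sums and rounded for count tests. Gene names, biotypes and coordinates are those of WBcel235, and all 612 coordinates matched the tables. The tRNA rule, gene lists and sets were chosen with earlier results of these data known.

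Counts were tested in R (4.3.3) with edgeR (4.0.16, limma 3.58.1) quasi-likelihood tests with TMM factors, for features with 10 counts in at least 3 libraries of the fit, and adjusted over all features by the Benjamini-Hochberg method. A gene was called at a 2-fold or larger difference with an adjusted p up to 0.05. SE is the log2 difference divided by the square root of F. Sums were compared with exact permutation tests written in Python (3.11.15), with figures drawn in matplotlib (3.10.9). The sets of genes with like levels were formed by complete linkage in scipy (1.17.1). Alternatives were DESeq2 (1.42.0) with its size factors, library size alone, no filter, a replicate block, a suffix term, other scalings and subsets of the sums, and each replicate left out. Restored sums and the omission of the set with the largest share were added after seeing the data.

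Input and IP of a number came from 1 lysate and so are paired by design. Their deviations from the group means correlated above 0.1 in 16 of 18 pairs (range -0.003 to 0.52 over 7610 genes). Between genotypes the numbers do not pair samples. The p-values measure the spread between cultures as labelled. None of the 36 pairs of replicates within a condition agreed within sampling noise.

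Genes were named by a rule, namely the 5 of highest mean RPM and, in each comparison, the 3 called genes of highest mean RPM in each direction. ZK678.t2 at its IP level, F49E7.t1, F52E10.t4, F52E10.t5, Y54G2A.t1, host genes and partner features were named after their values were seen. The same holds for B0513.t1 in *mut-2* inputs and in *hrde-2* enrichment, and for K02A4.t2 in the IP of *simr-1*. Analyses by anticodon family or identical sequence were not run, since no genome sequence was used here, and microRNA, with 1 feature, was not compared.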

Additional observations from a re-analysis of the deposited data

Results flagged for a closer look

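The following genes were picked out because the IP to input ratio differed between genotypes by the interaction test itself in edgeR, with values as log2 differences of enrichment. Enrichment in *hrde-2* exceeded that in wild-type for E01H11.t1 (3.50), F14B6.t2 (3.89) and T15B12.t1 (3.50), all of the 9-gene set. E01H11.t1 had IP levels of 0.431, 1.32 and 1.17 RPM in wild-type and 1.33, 1.83 and 7.07 RPM in *hrde-2*, and inputs of 676, 19.3 and 373 RPM and 39.6, 142 and 83.8 RPM. The input of wild-type replicate 2 was below every *hrde-2* input and the other 2 above. Enrichment in *hrde-2* was lower for C16H3.t1 (-2.28), F56F3.t1 (-1.67) and C06B8.t2 (-1.64), a gene with an intron that lies in *nhr-150*. Without wild-type replicate 2 the last value was -1.55 and no longer called (adjusted p = 0.093 in edgeR). F56F3.t1 had IP levels of 6.21, 1.98 and 4.09 RPM in wild-type and 1.33, 0.847 and 1.22 RPM in *hrde-2*, without overlap.

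In *simr-1* enrichment was below wild-type for Y73F8A.t1 (-2.83), T28D6.t1 (-2.03) and W10G11.t2 (-1.93). The IP levels of Y73F8A.t1 were 3.94, 3.05 and 3.76 RPM in wild-type and 0.989, 1.32 and 1.30 RPM in *simr-1*, without overlap, while the inputs overlapped. Relative to wild-type, *mut-2* enrichment was higher for K11H12.t1 (3.42), F55G7.t1 (1.47) and ZK822.t1 (1.35) and lower for F31B12.t1 (-1.75), Y39B6A.t10 (-1.52) and F27B10.t1 (-1.96). K11H12.t1, 86 nt on chromosome IV (658181 to 658266) in an intron of *K11H12.8*, had IP levels of 1.05, 1.15 and 0.648 RPM in wild-type and 4.06, 4.64 and 4.04 RPM in *mut-2*, and inputs of 178, 10.8 and 98.5 RPM and 34.8, 41.0 and 40.9 RPM. F27B10.t1 differed in its inputs instead, at 7.93, 8.02 and 5.34 RPM in wild-type and 19.02, 19.45 and 36.5 RPM in *mut-2*, with IPs of 0.783 to 1.65 RPM in both.

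Among the highest genes, M01E10.t2 (-1.94), Y22D7AL.t4 (-1.24) and Y53C10A.t3 (-1.18) had lower enrichment with *hrde-2* also mutated than in *mut-2* alone. With *simr-1* mutated instead, the same held for F49E2.t1 (-2.33), Y73F8A.t1 (-2.61) and K11H12.t1 (-1.78). The IP levels of Y73F8A.t1 were 7.40, 2.53 and 1.77 RPM in *mut-2* and 1.19, 0.757 and 1.14 RPM in *simr-1 mut-2*, against inputs of 53.8, 70.6 and 76.1 RPM and 120.2, 100.7 and 71.8 RPM.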

How the results depend on the processing

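The depletion of summed tRNA counts in the IP kept its direction in every alternative, whereas differences in the log2 ratio of the sums from wild-type crossed 0 with 1 replicate left out, at -0.89 to 0.27 in *simr-1*, -0.63 to 0.53 in *mut-2* and -1.11 to 0.05 in *simr-1 mut-2*. These shifts were below an SD that the wild-type lysates widened (1.19). Counts of called genes moved more. Genotypes are listed below in a fixed order, namely wild-type, the single mutants (*hrde-2*, *simr-1*, *mut-2*) and then the double mutants with *hrde-2* and with *simr-1*, comparisons with wild-type first, and numbers are genes called in either direction. With the genes that have an exon overlap left out, which by construction leaves fewer genes, the numbers were 185, 205, 214, 218, 224 and 221 for IP against input. For inputs of the last 3 strains against wild-type they were 50, 34 and 36, and 1 and 17 for the double mutants against *mut-2*. For enrichment they were 41, 16, 34, 122 and 59. This option leaves the fits as they are, so the shares of all features are those given in the results above. Without the filter on low counts the inputs gave 3 (*hrde-2*), 148 and 138 (the double mutants) and, for *mut-2; hrde-2* against *mut-2*, 10, and enrichment against wild-type gave 139, 13 and 171. In the double mutant inputs against wild-type 20% and 16.4% of the tRNA genes were then higher, beside 12.9% and 10.1% of all features. Enrichment was higher for 20.1%, 0% and 24.7%, beside 18.7%, 10.6% and 19%. With library size alone the inputs of the last 3 strains gave 159, 225 and 239, *mut-2; hrde-2* against *mut-2* gave 36, and enrichment in *simr-1* gave 7. DESeq2 gave 5 and 11 for the latter 2 comparisons. For *mut-2; hrde-2* against *mut-2*, 6.72% of the tRNA genes and 1.92% of all features were higher with library size alone. In DESeq2 these were 0.791% and 0.325%. For enrichment in *simr-1*, 1.23% and 2.85% were lower with library size alone, and 2.26% and 10.8% in DESeq2. With the suffix term the inputs against wild-type gave 6, 19, 266, 338 and 253, and enrichment 108, 63 and 163. In the last 3 of these inputs 53.9%, 66.1% and 49.9% of the tRNA genes were higher, beside 10%, 12.1% and 10.8% of all features. For enrichment in this fit 20%, 0.206% and 27% were higher (34.4%, 9.36% and 29.7% of all features). Lower were 2.04%, 12.8% and 4.43% (36.8%, 24.7% and 10.9%) in this fit. This fit in effect compares the *mut-2* strains with wild-type replicate 2, and it reversed F38E9.t1 (1.93), C34E11.t1 (0.43) and ZK617.t1 (1.28) in *mut-2*, E01H11.t1 (1.82) and F14B6.t2 (1.99) in *mut-2; hrde-2* and E03E2.t2 (0.11) in *simr-1 mut-2*. With the lysate as a replicate block, enrichment against wild-type gave 165, 76 and 176. Of the tRNA genes, 31%, 0.206% and 29.3% were then higher (35.6%, 9.53% and 30.1% of all features). Lower were 2.65%, 15.4% and 4.62% (38%, 27.5% and 11.4%). A block by number, which pairs nothing between genotypes, gave 1 for *simr-1* inputs, and the block moved no other number by over 1.5 times. Leaving out 1 replicate gave 154 to 193, 224 to 244, 199 to 213, 301 to 302, 212 to 236 and 257 to 266 for IP against input, where fewer features pass the filter. Of the tRNA genes tested, 85% to 98.7% were then lower, beside 14.7% to 38.5% of all features. Leaving out 1 replicate gave 0 to 53, 0 to 18, 45 to 200, 44 to 179, 21 to 164, 2 to 11 and 7 to 61 for inputs, and 21 to 168, 5 to 43, 35 to 188, 185 to 280 and 42 to 95 for enrichment. Shares of all features without wild-type replicate 2 are given in the results above. In comparisons with wild-type the highest number came without wild-type replicate 2, except for enrichment in *simr-1* (43, without wild-type replicate 1).

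For the summed IP to input difference (log2), scaling to reads mapped to the genome gave -3.32, -4.69, -4.20, -5.39 and -4.39 from *hrde-2* on, and leaving out the set with the largest share -3.73, -4.92, -4.52, -5.89 and -4.94. Without exon overlaps *mut-2* had -4.75 and *mut-2; hrde-2* -6.22, and -6.65 with divided reads restored. For IP sums, TMM-scaled sizes against wild-type gave 0.41 for *hrde-2*, -0.081 for *simr-1 mut-2* (reversed) and -0.43 for *mut-2; hrde-2*, and -0.93 for *simr-1 mut-2* against *mut-2*. Mapped reads gave 1.34, 0.31 and 0.75 for the last 3 strains, and exon overlaps left out -0.24 and 0.21 for the double mutants. Except where its construction is named, the cause was not tested. Leaving out 1 replicate kept the sums of IP against input between -6.57 and -3.89. It gave input differences of -0.69 to 0.44, -0.14 to 0.99, 0.48 to 1.61, 0.76 to 1.89, 0.30 to 1.43, 0.14 to 0.36 and -0.44 to -0.01. Of 712 values of named genes, 541 kept direction and call, 165 lost the call and 6 reversed. Anticodon families were not run. At 0.0573 to 0.234 RPM a count, genes under 1 RPM rest on few counts.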
